A study of Mus musculus with 69 samples.

Results

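The levels of 34 genes of glycolysis and of the hypoxia-inducible factor (HIF) pathway were followed in mouse bone marrow-derived macrophages (BMDMs). The genes were chosen by their symbols from the 24537 genes listed in each of 3 tables of TPM, a measure of transcript abundance corrected for length and library size. The genes were grouped by role into 3 glucose transporters, 3 hexokinases, 7 enzymes of upper glycolysis, 3 enzymes of fructose 2,6-bisphosphate, 5 enzymes of lower glycolysis, 2 lactate dehydrogenases, 2 lactate transporters, 5 genes of pyruvate dehydrogenase and its kinases, and 4 genes of the HIF pathway. Of the 34 genes, 33 had at least 1 TPM in at least 2 libraries of each table and were tested. The remaining gene, Pdk4, was at or near 0 in these macrophages.

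The macrophages were grown from bone marrow of young adult female mice with M-CSF and were left untreated (basal) or given 20 ng/ml of mouse recombinant IL-4. The first table held basal and 24 h IL-4 libraries from 5 strains, the wild-derived SPRET/EiJ (SPRET) and PWK/PhJ (PWK) and the laboratory strains NOD/ShiLtJ (NOD), BALB/cJ (BALB) and C57BL/6J (C57), with 3 libraries a group and 2 for basal PWK, 29 in all. The second held a time course of 0, 1, 6 and 24 h in C57 and SPRET, with 2 libraries a group. The third held the same times in Egr2 fl/fl mice without a Cre (Egr2WT) and in LyzM-Cre Egr2 fl/fl mice (Egr2MKO), also with 2 libraries a group. Both Egr2 groups thus carried the floxed allele, and LyzM-Cre acts in cells of the myeloid lineage. A further pair of tables gave allele-weighted values for F1 hybrids of C57 with NOD and of C57 with SPRET, 2 libraries a group.

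Glycolysis turns glucose into pyruvate. Glucose enters through transporters such as Slc2a1, is trapped by hexokinases, and is committed at the phosphofructokinase step, which fructose 2,6-bisphosphate activates. The Pfkfb enzymes make and break that activator. Pyruvate is either reduced to lactate by lactate dehydrogenase and exported by Slc16a family transporters, or oxidized by pyruvate dehydrogenase, which the Pdk kinases inhibit. HIF-1 alpha, encoded by Hif1a, switches on many of these genes when oxygen is low, and the prolyl hydroxylases Egln1 and Egln3 mark it for degradation. In macrophages glycolysis is best known from responses to bacterial products, while IL-4 acts through STAT6 and is usually tied to oxidative metabolism.

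Library depth, in units of 1e6 tags, ran from 7.02 to 22.5 in the strain table, from 5.70 to 24.0 in the time course and from 4.69 to 32.9 in the Egr2 table, and replicate libraries correlated at r = 0.971 or more over the genes tested. No 2 replicate libraries held identical values. The 8 macrophage markers summed to between 11020 and 30790 TPM in every library of the strain table, with PWK the lowest at 11020 to 11700 TPM, whereas T cell, B cell and erythroid markers were near 0. Of the macrophage markers, Fcgr1, an IgG receptor, was at 1.27 to 1.61 TPM in basal SPRET against 68.3 to 72.2 TPM in basal C57, and Mertk, a receptor for dying cells, was at 0.905 to 0.928 TPM in basal PWK. Neutrophil markers summed to 551 to 601 TPM in PWK and to 344 to 404 TPM in basal SPRET, against 106 to 131 TPM in basal C57, while their defining marker Ly6g was at 0.276 TPM or less in every library. Fibroblast markers summed to 201 to 209 TPM in basal PWK and to 5.06 to 6.12 TPM in basal C57, nearly all of it Dcn, with the collagen gene Col1a1 near 0. Of the 4 IL-4 control genes, 3 rose after 24 h of IL-4 in C57, BALB, NOD and PWK and 2 rose in SPRET. In RNA from whole cultures, fewer cells of a type and less RNA per cell cannot be told apart.

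Several of the 34 genes have near copies elsewhere in the genome, and this limits what their values measure. Each 75-base window of their protein-coding transcripts, the length of a read, was looked for in every other annotated gene. In 6 genes more than 20% of the windows were found exactly elsewhere, namely 67.5% in Pgk1, 55.5% in Gapdh, 44.3% in Eno1, 43.7% in Bnip3, 40.6% in Pgam1 and 23.6% in Pfkfb2. For Gapdh the copies lay in 121 other genes, 112 of them pseudogenes, and for Eno1 mainly in its neighbour in sequence Eno1b. Reads of these 6 genes could be split between copies or dropped, so they are treated as uncertain below and counts are also given without them.

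**Figure D1:**
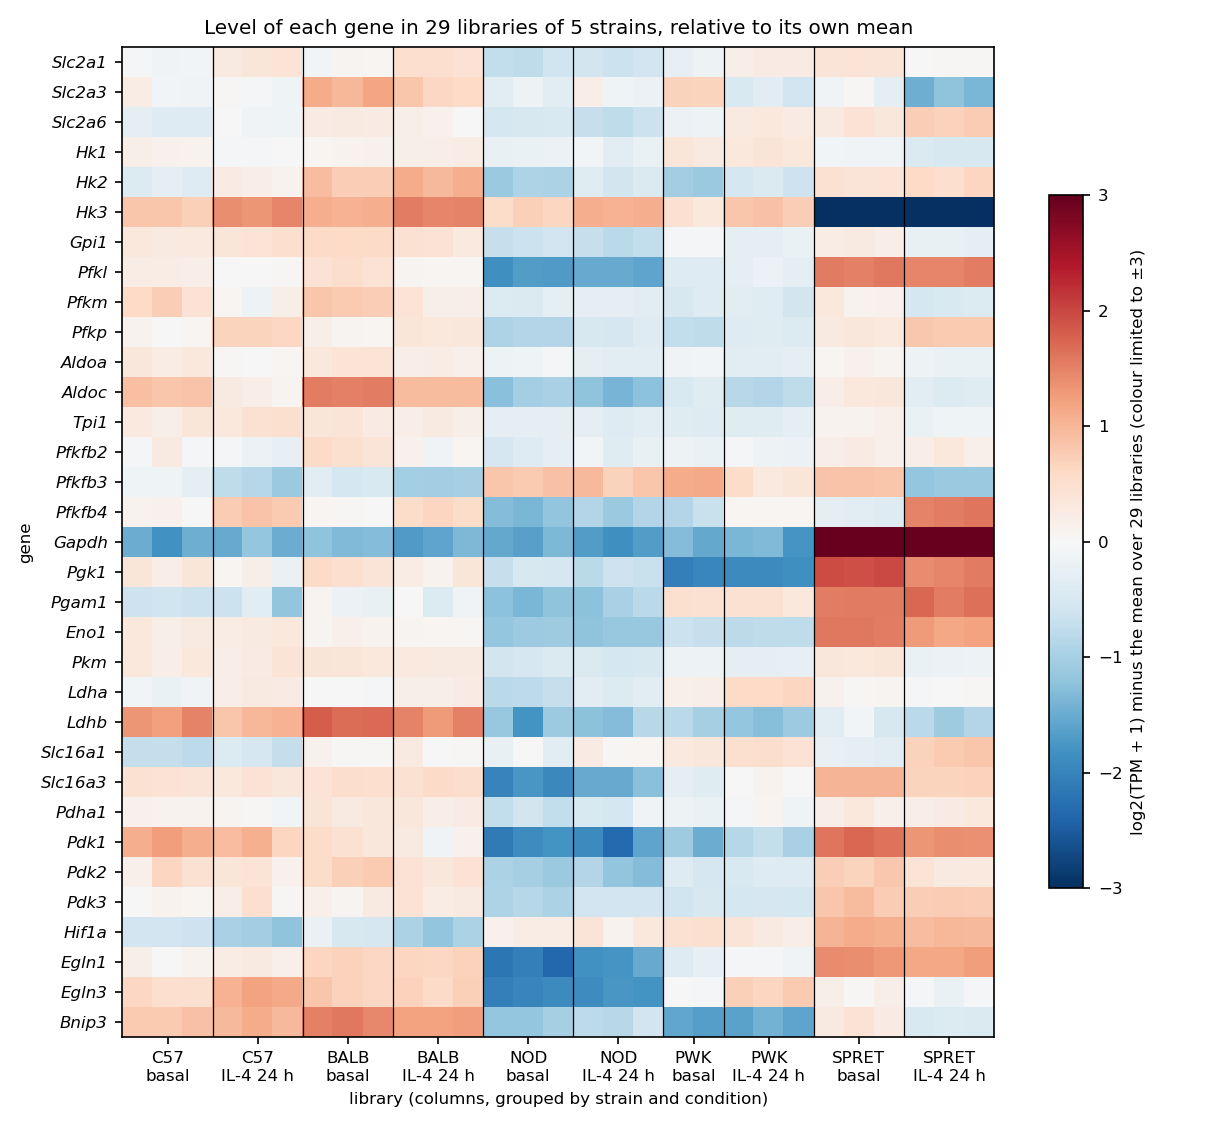
Each of the 33 members tested (rows, ordered by role) in each of the 29 libraries of the strain table (columns, grouped by strain and condition). Colour is log2(TPM + 1) minus the mean of that gene over the 29 libraries, limited to 3 in either direction; Gapdh is high and Hk3 low in all SPRET libraries alone, and Pdk1, Egln1, Egln3, Slc16a3 and Pfkl are low in all NOD libraries.

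Levels differed widely between the members. Ldha, the lactate dehydrogenase subunit that favours making lactate, was among the most abundant, with 1366 to 1497 TPM in basal C57. In contrast, Slc2a3, a high-affinity glucose transporter, was at 2.53 to 3.43 TPM and Slc16a1, a lactate and pyruvate transporter, at 2.94 to 3.14 TPM in the same libraries. TPM is a value per transcript length, so these levels can be compared between genes, except for those with near copies, whose reads could be split or dropped. Aldoa, the most abundant aldolase here, was at 3108 to 5284 TPM over the 29 libraries, Pkm, the pyruvate kinase, at 1086 to 2134 TPM, and Tpi1, an isomerase, at 676 to 1240 TPM. At the other end Pfkfb2, an enzyme of fructose 2,6-bisphosphate with near copies, was at 0.566 to 2.30 TPM. Aldoa and Pfkfb2 were the tested members with no call in any comparison of the 3 tables. The summed level of all members lay between 7244 and 12780 TPM in the strain table.

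The first question was whether 24 h of IL-4 moved these genes in each strain. A gene was called when it differed by more than 1.5-fold on the log2(TPM + 1) scale with an adjusted p under 0.05 in limma, adjusted over all 11907 genes tested in the table. Few members passed. In C57, 4 rose and 2 fell, against 5.00% of all genes rising and 5.27% falling. In BALB 1 member fell and none rose, against 2.92% of genes rising and 3.81% falling. In NOD no member passed, against 2.88% rising and 1.55% falling, although limma's adjusted p alone, with no limit on the fold, took in 13 higher and 3 lower members, against 28.2% of all genes higher and 6.07% lower. In PWK 2 rose and 2 fell, against 4.12% rising and 1.75% falling. In SPRET 2 rose and 6 fell, against 6.80% rising and 4.27% falling. Markers of cell types moved in the same comparisons. In SPRET 4 of the 8 macrophage markers fell, namely Cd14, Itgam, Fcgr1 and Csf1r, with a median log2 difference of -0.65 over the 8, and 1 fell in C57, 2 in BALB, none in NOD and 1 in PWK. Of 5 neutrophil markers tested, 2 fell in C57 and 2 in BALB, and the summed level of the whole list went from 106 to 131 TPM to 16.8 to 24.4 TPM in C57 and from 53.0 to 60.0 TPM to 18.1 to 19.8 TPM in BALB. The sum also went from 40.9 to 52.7 TPM to 15.2 to 18.9 TPM in NOD and from 344 to 404 TPM to 249 to 274 TPM in SPRET. It was at 552 to 558 TPM basally and 551 to 601 TPM after IL-4 in PWK. In PWK the fibroblast marker Dcn went from 201 to 208 TPM to 104 to 110 TPM. The part of these markers in the members' changes was not tested.

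Pfkfb4 and Pfkfb3 were the members called in 3 of the 5 strains, in opposite directions. Both encode enzymes that carry a kinase and a phosphatase domain for fructose 2,6-bisphosphate, Pfkfb3 with a strong bias to the kinase. Pfkfb4 (chr9:108991902-109032225, plus strand, mm10) rose and Pfkfb3 (chr2:11471431-11502090, minus strand) fell. The promoter windows of the 4 members that recur below are shown because hypoxia response elements hold the core letters ACGTG or GCGTG, and these windows let a reader see where such letters lie. Each runs from 250 bases before to 50 bases after a RefSeq start in GRCm38.p6, is written 5′ to 3′ on the gene's strand, and has the core letters, on either strand, in capitals.
Pfkfb4, chr9:108991652-108991951, plus strand: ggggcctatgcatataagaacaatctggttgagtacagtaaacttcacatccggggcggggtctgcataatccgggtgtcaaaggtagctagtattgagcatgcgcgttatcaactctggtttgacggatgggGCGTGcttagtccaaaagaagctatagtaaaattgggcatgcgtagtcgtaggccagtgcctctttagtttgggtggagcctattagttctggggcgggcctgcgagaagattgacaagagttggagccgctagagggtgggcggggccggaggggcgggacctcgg
Pfkfb3, upstream start, chr2:11553880-11554179, minus strand: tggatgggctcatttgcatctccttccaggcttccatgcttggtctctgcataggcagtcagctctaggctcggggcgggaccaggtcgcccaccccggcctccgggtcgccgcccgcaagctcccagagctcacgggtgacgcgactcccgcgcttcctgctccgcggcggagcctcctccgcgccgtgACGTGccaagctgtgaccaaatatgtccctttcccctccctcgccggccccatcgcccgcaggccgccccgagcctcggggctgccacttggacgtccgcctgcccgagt
Pfkfb3, downstream start, chr2:11502041-11502340, minus strand: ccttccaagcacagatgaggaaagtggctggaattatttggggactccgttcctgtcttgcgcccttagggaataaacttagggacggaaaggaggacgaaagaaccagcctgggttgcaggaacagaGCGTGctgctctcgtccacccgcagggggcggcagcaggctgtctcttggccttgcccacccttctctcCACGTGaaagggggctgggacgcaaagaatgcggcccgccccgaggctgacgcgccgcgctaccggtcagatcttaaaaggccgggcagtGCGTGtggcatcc
Egln3, chr12:54203825-54204124, minus strand: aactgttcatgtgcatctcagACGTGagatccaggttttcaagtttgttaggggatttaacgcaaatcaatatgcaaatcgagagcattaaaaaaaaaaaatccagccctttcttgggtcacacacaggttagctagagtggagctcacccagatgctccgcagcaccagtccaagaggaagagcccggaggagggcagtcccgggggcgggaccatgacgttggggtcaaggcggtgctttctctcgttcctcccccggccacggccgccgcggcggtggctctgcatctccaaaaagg
Hk2, chr6:82774405-82774704, minus strand: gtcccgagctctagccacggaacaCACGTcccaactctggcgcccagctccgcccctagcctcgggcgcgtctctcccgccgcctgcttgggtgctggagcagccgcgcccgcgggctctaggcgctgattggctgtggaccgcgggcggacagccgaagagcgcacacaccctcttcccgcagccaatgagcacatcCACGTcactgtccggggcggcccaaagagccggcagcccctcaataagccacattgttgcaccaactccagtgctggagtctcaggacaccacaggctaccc
The Pfkfb4, Egln3 and upstream Pfkfb3 windows each held 1 match, Hk2 held 2, and the downstream Pfkfb3 window held 4, of which a pair overlap in the palindrome CACGTG. A match of letters is a description and not a bound site.

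Pfkfb4 stood at 12.3, 12.4 and 11.2 TPM in basal C57 and at 19.8, 21.2 and 20.1 TPM after IL-4. In SPRET it went from 9.20, 8.77 and 8.38 TPM to 33.4, 34.5 and 36.6 TPM. In PWK it went from 5.69 and 6.69 TPM to 11.9, 11.8 and 11.7 TPM. The basal and IL-4 libraries did not overlap in any of these strains, and SPRET moved from below C57 to above it. The log2 difference was 0.72 ± 0.07 (SE, adjusted p = 5.4e-09, limma) in C57, 0.83 ± 0.08 (adjusted p = 7.0e-09, limma) in PWK and 1.87 ± 0.07 (adjusted p = 2.5e-17, limma) in SPRET. BALB, from 11.2 to 11.8 TPM basally to 17.1 to 18.2 TPM, differed by 0.55 ± 0.07 and NOD, from 3.74 to 4.44 TPM to 4.72 to 5.73 TPM, by 0.34 ± 0.07. Both of these were under the limit on fold, while limma's adjusted p was 8.2e-07 in BALB and 0.00058 in NOD.

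Pfkfb3 moved the other way. It stood at 26.0, 26.1 and 23.7 TPM in basal C57 and at 16.4, 15.3 and 12.8 TPM after IL-4. In SPRET it dropped from 52.9, 52.5 and 51.4 TPM to 12.2, 12.8 and 12.6 TPM, so that the strain with a basal level above C57 ended below it. In PWK it went from 63.0 and 64.3 TPM to 42.7, 35.6 and 37.3 TPM. The log2 difference was -0.73 ± 0.08 (adjusted p = 2.8e-08) in C57, -0.71 ± 0.09 (adjusted p = 6.4e-07) in PWK and -1.98 ± 0.08 (adjusted p = 8.3e-17) in SPRET, all by limma. BALB differed by -0.56 ± 0.08, short of the fold limit. NOD stood apart, with 52.1, 50.4 and 53.8 TPM basally and 57.6, 46.5 and 52.2 TPM after IL-4, groups that overlapped.

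The other calls were spread over the roles. Among the hexokinases and the phosphofructokinases, Hk3 and Pfkp rose in C57 by 0.60 ± 0.06 and 0.61 ± 0.04 (limma adjusted p = 7.3e-09 and 7.4e-12). Aldoc, an aldolase, fell in C57 by 0.69 ± 0.06 and in SPRET by 0.65 ± 0.06. Egln3, the HIF prolyl hydroxylase that HIF itself induces, rose in C57 by 0.59 ± 0.07 and in PWK by 0.75 ± 0.07. Slc2a3 fell in PWK, from 5.14 and 5.05 TPM to 1.77, 2.06 and 1.57 TPM, and in SPRET, from 2.55, 2.86 and 2.16 TPM to 0.381, 0.656 and 0.478 TPM. Slc16a1 rose in SPRET, from 4.76, 4.48 and 4.34 TPM to 9.90, 10.7 and 10.9 TPM, and did not overlap between the groups. In SPRET the muscle phosphofructokinase Pfkm, the lactate dehydrogenase subunit Ldhb and Bnip3, a mitophagy receptor and HIF target, fell as well, Bnip3 being one of the genes with near copies. Hif1a fell in BALB by 0.63 ± 0.08. Several of these lay at the fold limit and were lost when 1 library was left out. Hk3 in C57 came to 0.56 without IL-4 replicate 3 or basal replicate 3, Pfkp in C57 to 0.57 without basal replicate 2, and Ldhb in SPRET to -0.54 without IL-4 replicate 2 and -0.50 without basal replicate 2. Egln3 in C57 came to between 0.56 and 0.58 without replicate 2 or 3 of either group, and Hif1a in BALB to -0.56 without IL-4 replicate 2 and -0.54 without basal replicate 1.

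**Figure D2:**
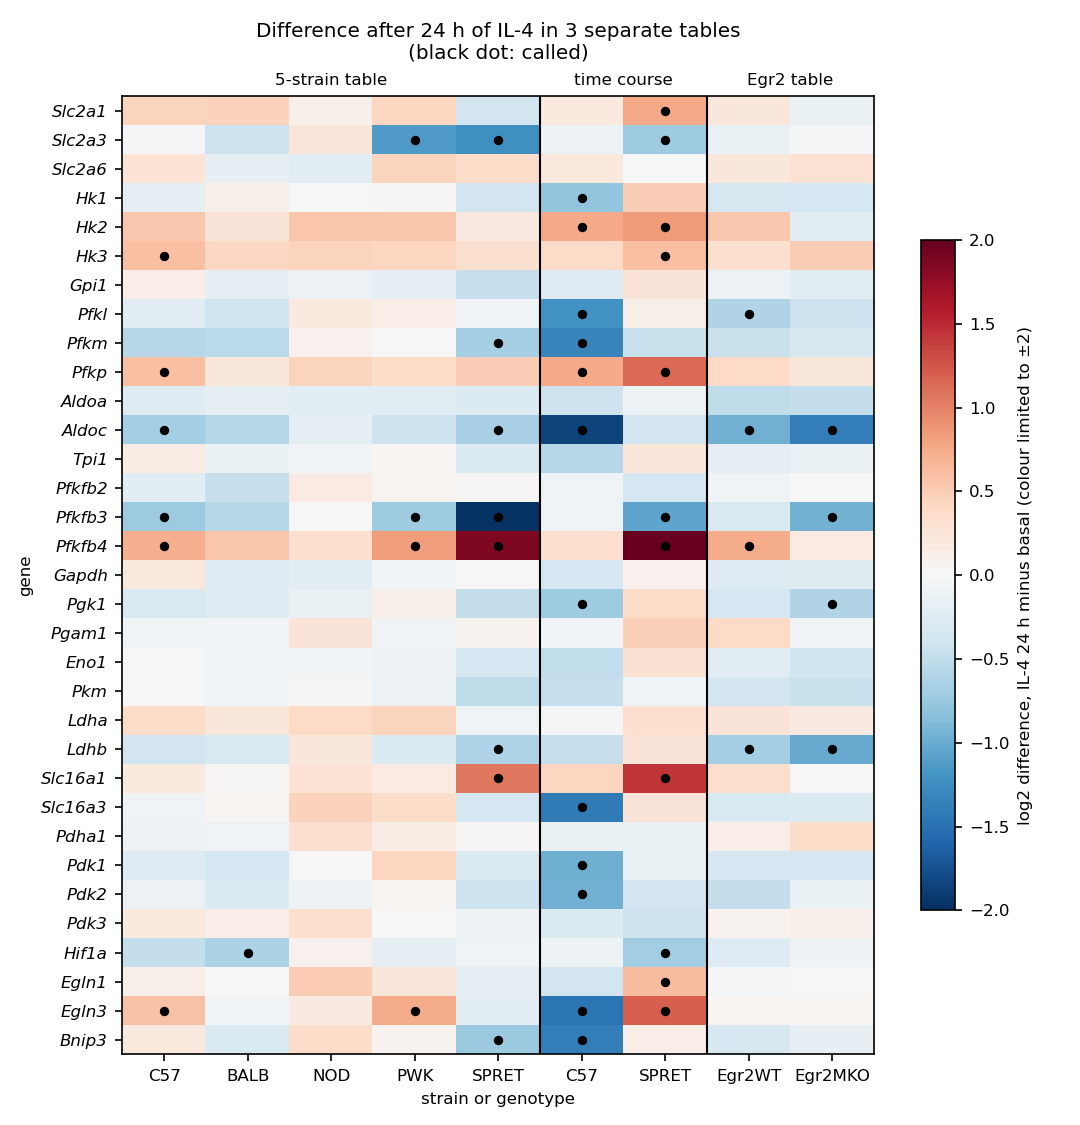
Log2 difference after 24 h of IL-4 (IL-4 minus basal) of the 33 members tested, in the 5 strains, in C57 and SPRET of the time course and in both Egr2 genotypes. Colour is the estimate from limma on log2(TPM + 1), limited to 2 in either direction, and a black dot marks a call; Pfkfb3 reaches -1.98 and Pfkfb4 1.87 in SPRET of the strain table, and C57 of the time course has 10 members with a dot that fell.

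The abundant members Ldha and Aldoa moved differently, and neither was called. Ldha was higher after IL-4 in C57, BALB, NOD and PWK by 0.37, 0.23, 0.41 and 0.44 on the log2 scale, none past the fold limit, and differed in SPRET by -0.09 ± 0.04 (limma adjusted p = 0.076). Aldoa was lower after IL-4 in every strain, and its basal and IL-4 libraries did not overlap. It went from 4617 to 4980 TPM to 3987 to 4096 TPM in C57 and from 4114 to 4290 TPM to 3437 to 3565 TPM in SPRET. Over the 33 members, the median log2 difference was -0.27 in SPRET (0.11 over all genes tested), 0.17 in NOD (0.12), -0.13 in BALB (-0.11), 0.06 in PWK (0.08) and 0.01 in C57 (-0.04). With another scaling of the libraries, by median ratios, the call in BALB was lost and 2 other members rose there instead.

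The second question was how the strains differed before IL-4. Each strain was compared with the same 3 basal C57 libraries, so the 4 comparisons share their controls and are given side by side. Most members passed in NOD and in PWK. In NOD 2 were higher and 22 lower than in C57, against 10.3% of all genes higher and 30.1% lower. In PWK 5 were higher and 15 lower, against 9.23% higher and 20.5% lower. In SPRET 12 were higher and 2 lower, against 18.3% higher and 16.9% lower. In BALB 6 were higher and 1 lower, against 7.01% higher and 6.08% lower.

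NOD and PWK also had lower values over all genes. The median log2 difference from C57 over all genes tested was -0.30 in NOD and -0.16 in PWK, and over the 33 members it was -0.79 and -0.43. In BALB and SPRET the members' medians were 0.20 and 0.25 beside 0.04 and 0.02 over all genes. Scaled by median ratios, taken over the genes above 0 in every library, the members gave 3 higher and 13 lower in NOD, against 18.8% of all genes higher and 15.3% lower, and 5 higher and 10 lower in PWK, with members' medians of -0.41 and -0.23. Without the 6 genes with near copies the counts were 2 higher and 18 lower in NOD, 4 and 12 in PWK, 8 and 2 in SPRET and 5 and 1 in BALB. Of the 8 macrophage markers, 4 were lower and 1 higher in basal NOD and 5 lower and 1 higher in basal PWK, where all 5 neutrophil markers tested were higher. The part of these markers in the members' differences was not tested.

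In NOD the lowest members came from pyruvate control, lactate handling and the HIF pathway. Pdk1 (chr2:71873224-71903858, plus strand), a kinase that turns off pyruvate dehydrogenase and is a HIF target, was at 1.13, 1.47 and 1.64 TPM in basal NOD against 18.5, 20.9 and 18.7 TPM in basal C57, a log2 difference of -3.08 ± 0.14 (limma adjusted p = 1.0e-15). Egln3 was at 5.00, 5.35 and 5.64 TPM in NOD against 37.6, 34.6 and 34.1 TPM in C57, and Egln1 (chr8:124908587-124949254, minus strand) at 4.34, 4.75 and 3.67 TPM against 26.1, 23.3 and 24.8 TPM. Slc16a3, the lactate exporter MCT4, was at 49.1, 58.4 and 51.2 TPM against 275, 270 and 262 TPM. None of these groups overlapped. The 3 log2 differences were -2.52 ± 0.07, -2.30 ± 0.07 and -2.33 ± 0.06. Pfkl, the liver-type phosphofructokinase, Aldoc, Bnip3 and Ldhb were lower as well, by 1.96, 1.94, 1.93 and 2.69 on the log2 scale. Hif1a itself and Pfkfb3 were the members higher in NOD, by 0.79 ± 0.08 and 1.02 ± 0.08. Of the 22 lower members, 9 lost the call under median-ratio scaling, namely Slc2a1, Hk2, Gpi1, Pfkp, Pgk1, Pgam1, Pkm, Ldha and Pdha1, whereas Pdk1, Egln3, Egln1, Slc16a3, Pfkl, Aldoc, Bnip3 and Ldhb kept it. Leaving out NOD basal replicate 2 took Slc2a1 to -0.58, and leaving out NOD basal replicate 1 took Hk2 to -0.58.

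PWK had its own pattern among the same roles. Pdk1 was at 3.38 and 2.27 TPM and Ldhb at 3.59 and 3.01 TPM, while Ldha, at 1752 and 1809 TPM, was above the 1366 to 1497 TPM of C57. Slc16a1, at 7.21 and 7.60 TPM, was higher than in C57 by 1.05 ± 0.10 and Slc16a3, at 162 and 155 TPM, lower by 0.76 ± 0.07, so the pair of lactate transporters differed in opposite directions. Hif1a, at 77.6 and 78.2 TPM, was higher by 1.07 ± 0.09 and Pfkfb3 by 1.30 ± 0.09. Bnip3 and Pgk1 were lower by 2.43 ± 0.08 and 2.31 ± 0.09, but both have near copies. Slc16a3 came to -0.56 under median-ratio scaling and then no longer passed.

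SPRET differed from C57 in the other direction for most called members, and in BALB Hk2 led. Hif1a, which was higher than in C57 in NOD and PWK as well, was at 114, 121 and 117 TPM in basal SPRET against 37.0, 37.1 and 35.8 TPM in C57. The log2 difference was 1.66 ± 0.08 (limma adjusted p = 9.8e-16). Pfkl, at 216, 212 and 220 TPM against 85.7, 86.4 and 84.8 TPM, and Egln1, at 62.9, 61.7 and 58.5 TPM, were higher by 1.33 ± 0.05 and 1.27 ± 0.07. Dividing cell markers summed to 48.9 to 54.2 TPM in basal SPRET and 19.9 to 24.5 TPM in basal C57, and their part was not tested. In BALB, Hk2 (chr6:82725027-82774454, minus strand), the inducible hexokinase bound to mitochondria, was at 62.6, 54.7 and 54.9 TPM against 24.1, 26.8 and 24.7 TPM in C57, higher by 1.16 ± 0.07 (limma adjusted p = 3.7e-13). Slc2a3 and Slc16a1 followed at 1.08 ± 0.11 and 0.80 ± 0.09, and Pdk1 was the member lower in BALB, by 0.70 ± 0.14.

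A pair of genes set SPRET apart by far more than the rest. Hk3 (chr13:55005985-55021385, minus strand), a hexokinase of myeloid cells, was at 5.31, 5.45 and 6.13 TPM in basal SPRET and between 124 and 290 TPM in every library of the other 4 strains, with a log2 difference from C57 of -4.72 ± 0.06 (limma adjusted p = 1.1e-27). No window of Hk3 was found in another gene. Gapdh (chr6:125161852-125165773, minus strand), which catalyses the first step of lower glycolysis, was at 372 to 404 TPM in SPRET and at 1.03 to 2.25 TPM in the other strains, a log2 difference of 7.33 ± 0.12. A level of 1 to 2 TPM for Gapdh stands beside 1366 to 1497 TPM for Ldha in basal C57, and 55.5% of the Gapdh windows have copies. The same held in the time course, with 1.21 to 2.27 TPM in C57 and 232 to 287 TPM in SPRET. Pgk1, which follows Gapdh in the pathway, was at 249, 243 and 255 TPM in basal SPRET, 82.5, 72.9 and 81.5 TPM in C57 and 14.4 and 15.7 TPM in PWK, and 67.5% of its windows have copies. Whether the copies produced these differences was not tested.

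Of the 5 members with the widest range over the 10 groups, Gapdh, Hk3, Pgk1, Pdk1 and Egln1, SPRET was the highest strain in Gapdh, Pgk1, Pdk1 and Egln1 and the lowest in Hk3, and in Pdk1 and Egln1 NOD was the lowest. Gapdh was at 383, 385 and 394 TPM in basal SPRET and 383, 404 and 372 TPM after IL-4. In the other strains it was at 1.598, 1.055 and 1.619 TPM basally and 1.538, 2.248 and 1.607 TPM after IL-4 in C57, 2.148, 1.898 and 1.952 TPM and 1.235, 1.423 and 1.868 TPM in BALB, 1.507, 1.335 and 1.876 TPM and 1.286, 1.029 and 1.282 TPM in NOD, and 1.93 and 1.49 TPM and 1.817, 1.902 and 1.147 TPM in PWK. These 4 strains overlapped with each other. Hk3 went from 5.31, 5.45 and 6.13 TPM to 8.04, 6.83 and 7.11 TPM in SPRET, from 177, 178 and 165 TPM to 262, 250 and 275 TPM in C57 and from 214.5, 207.5 and 213 TPM to 289.5, 277 and 282 TPM in BALB. It went from 146, 164 and 155 TPM to 213, 207 and 214 TPM in NOD and from 137 and 124 TPM to 178, 184 and 166 TPM in PWK. The IL-4 libraries of Hk3 lay above the basal ones in all 5 strains, and the difference was called in C57 alone, where it was lost without single libraries.

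Pgk1, with its near copies, went from 249, 243 and 255 TPM to 170, 178 and 189 TPM in SPRET, from 82.5, 72.9 and 81.5 TPM to 66.2, 71.2 and 55.1 TPM in C57 and from 94.6, 91.0 and 83.9 TPM to 74.5, 68.6 and 81.9 TPM in BALB. It went from 39.0, 45.3 and 44.4 TPM to 35.5, 40.7 and 39.8 TPM in NOD and from 14.4 and 15.7 TPM to 16.0, 16.2 and 17.1 TPM in PWK. Pdk1 went from 27.0, 29.1 and 27.5 TPM to 22.0, 23.2 and 22.8 TPM in SPRET, from 18.5, 20.9 and 18.7 TPM to 16.6, 18.3 and 13.3 TPM in C57 and from 12.4, 11.6 and 10.6 TPM to 10.1, 7.49 and 8.99 TPM in BALB. PWK, at 3.38 and 2.27 TPM and then 4.07, 4.63 and 3.70 TPM, and NOD, at 1.13, 1.47 and 1.64 TPM and then 1.44, 0.818 and 2.05 TPM, stayed below every library of the other strains for Pdk1. Egln1 went from 62.9, 61.7 and 58.5 TPM to 52.5, 52.4 and 56.3 TPM in SPRET, from 26.1, 23.3 and 24.8 TPM to 27.0, 28.1 and 25.7 TPM in C57 and from 36.4, 37.8 and 35.7 TPM to 36.6, 36.2 and 38.1 TPM in BALB. In PWK it went from 17.3 and 19.2 TPM to 22.0, 22.4 and 21.2 TPM and in NOD from 4.34, 4.75 and 3.67 TPM to 5.87, 6.06 and 7.42 TPM, so NOD lay below every other library of the table.

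The third question was whether the response to IL-4 differed from that of C57, tested as an interaction in the same fit. Few members passed in BALB, NOD and PWK and more in SPRET. In BALB 1 member differed against 5.69% of all genes, in NOD 3 against 11.1%, in PWK 3 against 8.81% and in SPRET 8 against 12.6%. All 4 again used the same C57 libraries. SPRET had the clearest differences. Its responses were lower for Pfkfb3 by 1.24 ± 0.11 (limma adjusted p = 2.8e-09) and for Slc2a3 by 1.18 ± 0.16, and higher for Pfkfb4 by 1.15 ± 0.10 (limma adjusted p = 1.6e-09) and for Slc16a1 by 0.87 ± 0.12. Slc2a1 (chr4:119108745-119137329, plus strand), a widely expressed glucose transporter, went from 124, 120 and 123 TPM to 158, 168 and 173 TPM in C57 and from 171, 172 and 171 TPM to 131, 132 and 134 TPM in SPRET, so the strains crossed, and the interaction was -0.81 ± 0.07 (limma adjusted p = 9.6e-10). Egln3 and Bnip3 differed by -0.81 ± 0.09 and -0.94 ± 0.10. Gpi1, an isomerase, differed by -0.59 ± 0.06, which came to between -0.58 and -0.56 without C57 IL-4 replicate 3, C57 basal replicate 2, SPRET IL-4 replicate 3 or SPRET basal replicate 2.

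The remaining interactions were smaller. In PWK, Slc2a3 differed from C57 by -1.08 ± 0.17 (limma adjusted p = 3.3e-05), since in C57 it stayed between 2.49 and 3.43 TPM. In C57 the values were 3.43, 2.58 and 2.53 TPM basally and 2.91, 2.73 and 2.49 TPM after IL-4. In NOD, Pfkfb3 differed by 0.73 ± 0.11, Pfkm by 0.66 ± 0.12 and Ldhb by 0.62 ± 0.21. Ldhb was at 2.62, 1.30 and 2.73 TPM in basal NOD and 2.41, 2.22 and 3.52 TPM after IL-4, groups that overlapped, against 19.1, 17.7 and 21.4 TPM and 13.3, 14.9 and 15.5 TPM in C57. Pfkm was at 7.63, 7.38 and 8.24 TPM in basal NOD and 8.22, 8.51 and 8.19 TPM after IL-4, against 16.4, 18.1 and 14.4 TPM and 10.8, 9.23 and 11.8 TPM in C57. Pdk1 and Pfkm differed in PWK by 0.70 ± 0.22 and 0.59 ± 0.13, the latter with 7.18 and 7.75 TPM basally and 8.05, 7.83 and 6.76 TPM after IL-4, and Egln3 in BALB by -0.65 ± 0.09, with 43.6, 39.5 and 37.2 TPM basally and 39.4, 36.4 and 39.7 TPM after IL-4, where C57 went from 37.6, 34.6 and 34.1 TPM to 50.8, 56.3 and 54.2 TPM. These depended on the scaling. By median ratios the interactions came to 0.50, 0.45 and 0.44 for Pfkfb3, Pfkm and Ldhb in NOD, to 0.56 and 0.42 for Pdk1 and Pfkm in PWK and to -0.56 for Egln3 in BALB, none of them past the threshold, and the counts became 0 higher and 2 lower in NOD, 0 and 1 in PWK and 0 in BALB. The median over all genes tested was 0.17 in NOD, 0.13 in PWK and 0.16 in SPRET before that scaling. Single libraries decided some as well. Pfkm in PWK came to between 0.50 and 0.58 without C57 basal replicate 1 or 2, C57 IL-4 replicate 2, PWK basal replicate 1 or PWK IL-4 replicate 1 or 2, and Ldhb in NOD came to 0.39 without NOD basal replicate 2, 0.47 without NOD IL-4 replicate 3, 0.55 without C57 basal replicate 3 and 0.56 without C57 IL-4 replicate 1. Pfkm in NOD came to 0.58 without C57 IL-4 replicate 2, Egln3 in BALB to -0.58 without BALB basal replicate 1, and Pdk1 in PWK to 0.49 without PWK basal replicate 2, 0.63 without PWK IL-4 replicate 2, 0.65 without C57 basal replicate 2 and 0.58 without C57 IL-4 replicate 3.

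The time course asked when these changes came, in C57 and SPRET cells of a separate experiment whose table was normalized on its own. Pfkfb3 was the first to move. It fell at 1 h in both strains, from 22.3 and 19.9 TPM to 11.3 and 12.6 TPM in C57 (log2 difference -0.77 ± 0.09, limma adjusted p = 0.00012) and from 35.8 and 40.1 TPM to 14.1 and 13.7 TPM in SPRET (-1.39 ± 0.09, limma adjusted p = 2.6e-07). It was the 1 member called at 1 h in C57, against 2.07% of all 12088 genes tested, and in SPRET Egln3 joined it, 2 members against 4.47%. Egln3 stood at 21.3 and 23.5 TPM basally and 38.4 and 39.6 TPM at 1 h in SPRET, 0.77 ± 0.17, and the call was lost without 1 h replicate 1 (0.79), 1 h replicate 2 (0.75) or basal replicate 1 (0.71). By 24 h Pfkfb3 was back at 20.0 and 19.4 TPM in C57 and still at 17.6 and 17.7 TPM in SPRET. Its C57 values at 6 h, 13.7 and 13.1 TPM, gave -0.62 ± 0.09, which came to -0.58 without 6 h replicate 2 and -0.53 without basal replicate 1.

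Pfkfb4 climbed with time in SPRET. From 21.1 and 23.1 TPM it went to 30.6 and 31.1 TPM at 1 h, 64.5 and 62.9 TPM at 6 h and 95.5 and 88.9 TPM at 24 h. In C57 it went from 20.3 and 18.8 TPM to 24.0 and 23.7, then 31.0 and 28.99, then 25.3 and 24.7 TPM. The log2 difference at 24 h was 2.01 ± 0.06 (limma adjusted p = 2.5e-10) in SPRET and 0.34 ± 0.06 in C57, and that at 6 h was 1.49 ± 0.06 and 0.59 ± 0.06. The C57 call at 6 h was lost without 6 h replicate 1 (0.55) or basal replicate 2 (0.54). At 6 h, 3 members were called in C57 against 6.73% of genes and 6 in SPRET against 11.9%. Hk2 was among the C57 members, at 35.6 and 34.7 TPM basally and 60.8 and 60.3 TPM at 6 h. In SPRET the lactate transporter Slc16a1 rose from 3.95 and 5.26 TPM to 12.9 and 13.6 TPM at 6 h and 14.2 and 13.6 TPM at 24 h.

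At 24 h the strains went different ways. In C57, 2 members rose and 10 fell, against 7.06% of genes rising and 8.78% falling. In SPRET, 8 rose and 3 fell, against 6.21% rising and 8.80% falling. Tested as an interaction, 14 members were higher and 2 lower in SPRET relative to C57, against 7.24% of genes higher and 8.60% lower. Aldoc fell in C57 from 52.2 and 52.4 TPM, and 46.5 TPM in both libraries at 6 h, to 14.2 and 13.4 TPM (log2 difference -1.85 ± 0.07, limma adjusted p = 1.1e-09). Slc16a3 fell from 170 and 186 TPM to 61.9 and 71.2 TPM, Egln3 from 20.8 and 24.4 TPM to 5.74 and 9.82 TPM and Bnip3 from 17.2 and 19.3 TPM to 6.17 and 6.66 TPM. None of these 4 was called in C57 at 6 h. In SPRET, Egln3 rose from 21.3 and 23.5 TPM to 54.1 and 51.6 TPM, and Slc16a3 stood at 264 and 276 TPM basally and 329 and 314 TPM at 24 h. The interactions were 2.66 ± 0.24 for Egln3, 1.66 ± 0.11 for Slc16a3, 1.51 ± 0.20 for Bnip3 and 1.47 ± 0.10 for Aldoc. Pfkm, Pfkl, Pdk1, Pdk2, Hk1 and Pgk1 also fell in C57, by 1.32, 1.21, 0.98, 0.96, 0.79 and 0.71 on the log2 scale, while Hk2 and Pfkp rose in both strains. Hif1a fell in SPRET, from 130 and 133 TPM to 84.7 and 76.7 TPM. In the C57 24 h libraries the dividing cell markers summed to 13.1 to 14.2 TPM against 21.4 to 22.1 TPM basally and neutrophil markers to 6.49 to 7.97 TPM against 66.2 to 94.3 TPM, and 4 of 8 macrophage markers and 3 of 5 dividing cell markers fell. Macrophage markers also moved in SPRET at 24 h. Csf1r went from 1677 and 1793 TPM to 824 and 794 TPM, and Adgre1 from 675 and 686 TPM to 372 and 351 TPM. Itgam went from 368 and 394 TPM to 178 and 174 TPM, and Cd14 from 699 and 778.5 TPM to 107 and 125 TPM. Cd68 and Mertk did not fall there. The part of the markers in the members' changes was not tested in either strain.

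**Figure D3:**
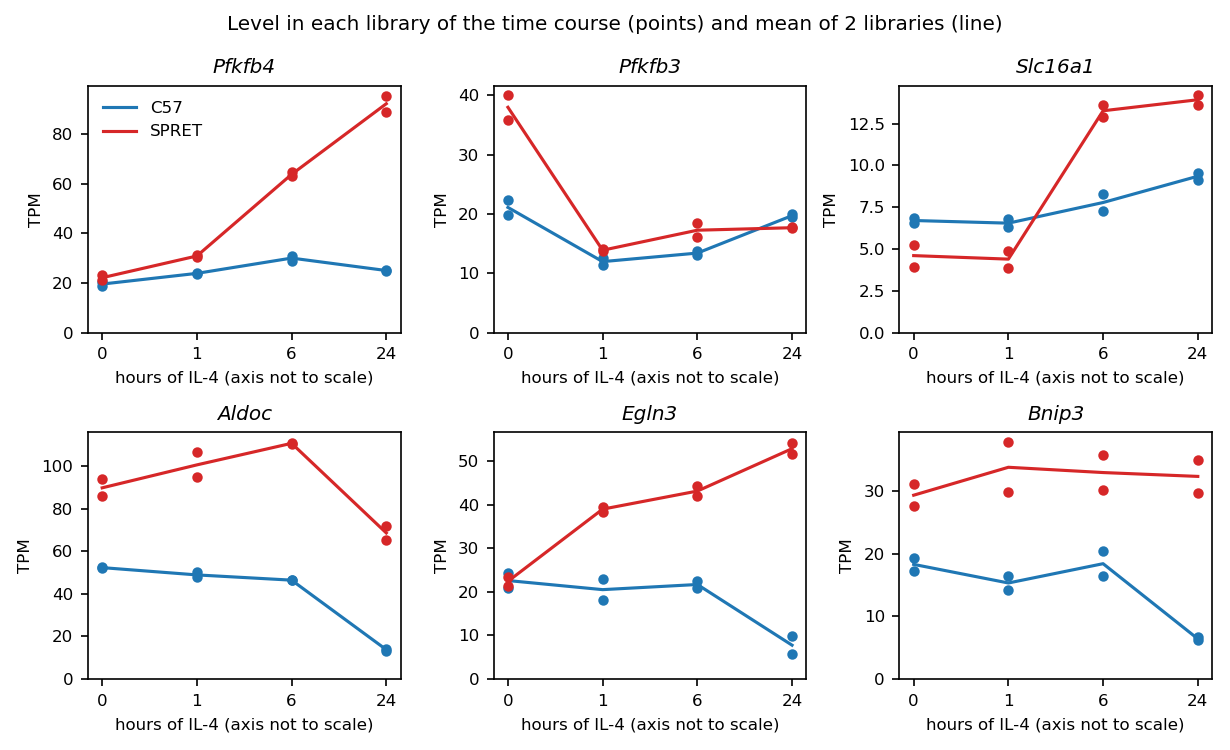
Levels of 6 members over the time course in C57 and SPRET. The x axis gives hours of IL-4 (not to scale), the y axis TPM from 0, points are the 2 libraries of each group and lines join their means; Pfkfb4 climbs to 95.5 and 88.9 TPM in SPRET, and Aldoc, Egln3 and Bnip3 drop in C57 at 24 h.

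Some 24 h responses differed between the 2 experiments in the same strain. The tables were normalized separately, so the values stand side by side with no test. Pfkfb3 in C57, which fell by 0.73 ± 0.08 in the strain table, had -0.09 ± 0.09 in the time course and was not called, and Pfkfb4 in C57, called at 0.72 ± 0.07, had 0.34 ± 0.06 and was not called. Egln3 in C57 had a log2 difference of 0.59 ± 0.07 in the strain table and -1.46 ± 0.17 in the time course, and in SPRET -0.22 ± 0.07 and 1.20 ± 0.17. The interaction of SPRET against C57 was thus called in opposite directions in the 2 tables for Egln3, at -0.81 ± 0.09 and 2.66 ± 0.24, and for Bnip3, at -0.94 ± 0.10 and 1.51 ± 0.20. Slc2a1 in SPRET had -0.37 ± 0.05 and 0.75 ± 0.09. Slc16a3 in C57 had -0.07 ± 0.06 and -1.41 ± 0.08, and Bnip3 in C57 0.20 ± 0.07 and -1.38 ± 0.14. Pfkfb4, Slc16a1 and Pfkfb3 in SPRET were called in the same direction in both, with 1.87 and 2.01, 1.06 and 1.42, and -1.98 and -1.06. The basal strain difference was also measured in both. In the time course 15 members were higher and 1 lower in basal SPRET than in basal C57, against 19.2% of genes higher and 15.7% lower, and without the genes with near copies 10 and 1. Hif1a, Pfkl, Egln1 and Hk3 differed there by 1.39, 1.28, 1.37 and -5.24, beside 1.66, 1.33, 1.27 and -4.72 in the strain table.

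The Egr2 table compared these genes between Egr2MKO and Egr2WT, Egr2 being a transcription factor that IL-4 induces. The genotypes differ in LyzM-Cre as well as in Egr2. No group carried the Cre alone, so the parts of Cre and of Egr2 loss cannot be told apart. Egr2 was at 23.6 and 21.3 TPM in basal Egr2WT libraries and at 101 and 99.5 TPM after 24 h of IL-4, against 0.859 and 0.854 TPM and 4.72 and 7.05 TPM in Egr2MKO, so every library matched its label. Before IL-4 and at 1 h no member was called between the genotypes, against 2.96% and 3.29% of all 12079 genes tested, although limma's adjusted p alone took in 8 and 10 members, against 11.5% and 11.4% of all genes. At 6 h 4 members were lower in Egr2MKO and none higher, against 6.61% of genes differing. At 24 h 5 were lower and 1 higher, against 7.44% of genes higher and 5.04% lower.

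Hk2 and Slc2a1, which bring in and trap glucose, had the largest differences between the genotypes. Hk2 went from 40.2 and 41.0 TPM to 58.7 and 57.8 TPM at 6 h and 59.8 TPM in both libraries at 24 h in Egr2WT, and from 35.8 and 35.9 TPM to 34.2 and 37.5 TPM and 30.2 and 31.7 TPM in Egr2MKO. The genotypes did not overlap at any time and drew apart from 6 h. The log2 difference of Egr2MKO from Egr2WT was -0.18 ± 0.05 basally, -0.69 ± 0.05 at 6 h (limma adjusted p = 2.8e-06) and -0.93 ± 0.05 at 24 h (limma adjusted p = 5.4e-08). The 24 h response itself differed by -0.75 ± 0.07 (limma adjusted p = 4.4e-05). Slc2a1 was at 126 and 122 TPM at 24 h in Egr2WT and 60.3 and 73.5 TPM in Egr2MKO, a log2 difference of -0.89 ± 0.07 (limma adjusted p = 1.5e-06), and already at 104 and 107 TPM against 73.0 and 74.0 TPM basally. That basal difference of -0.52 ± 0.07 was short of the fold limit.

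Other members with a genotype difference were smaller or less steady. Egln3 was lower at 6 h, at 25.4 and 25.1 TPM against 46.8 and 43.4 TPM, by 0.81 ± 0.12, but not called at 24 h, when it was at 28.3 and 33.6 TPM against 43.2 and 38.1 TPM. Pfkfb4 rose in Egr2WT, from 22.0 and 19.8 TPM to 35.8 and 35.4 TPM, and stood at 25.0 and 20.6 TPM in Egr2MKO at 24 h, a difference between genotypes of -0.63 ± 0.10 that came to -0.49 without Egr2MKO 24 h replicate 2. Pdk2, a kinase of pyruvate dehydrogenase, was the member higher in Egr2MKO, at 10.1 and 10.5 TPM against 5.77 TPM in both libraries, by 0.74 ± 0.13. Ldhb was lower at 6 h, at 6.72 and 7.25 TPM against 11.4 and 11.3 TPM, by 0.63 ± 0.13 (limma adjusted p = 0.0054). It was also lower by 0.59 ± 0.13 at 24 h, at 5.12 and 3.60 TPM against 6.32 and 7.75 TPM, where it came to -0.46 without Egr2WT 24 h replicate 2 and -0.39 without Egr2MKO 24 h replicate 2. Pgam1, which has near copies, was lower by 0.59 ± 0.08 and came to -0.58 without Egr2WT 24 h replicate 1 and -0.50 without Egr2MKO 24 h replicate 2.

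The response to 24 h of IL-4 within each genotype had 1 member rising and 3 falling in Egr2WT, against 5.11% of genes rising and 6.41% falling, and 4 falling in Egr2MKO, against 5.50% rising and 5.46% falling. Aldoc fell in both, from 66.8 and 69.8 TPM to 34.7 and 34.6 TPM in Egr2WT and from 68.4 and 66.7 TPM to 25.6 and 25.4 TPM in Egr2MKO. Pfkfb3 fell in Egr2MKO, from 19.9 and 19.7 TPM to 9.93 and 9.60 TPM, and went from 15.6 and 17.4 TPM to 14.0 and 12.3 TPM in Egr2WT. Its response differed between the genotypes by -0.64 ± 0.13 (limma adjusted p = 0.0065), which came to -0.55 without Egr2WT 24 h replicate 1 and -0.57 without Egr2WT basal replicate 1. With Hk2 it was 1 of 2 members whose response differed, against 5.73% of all genes. By median ratios the response in Egr2WT was 2 members up and 2 down, and Pfkl there no longer passed. Ldhb and Pfkl in Egr2WT came to -0.55 each without Egr2WT 24 h replicate 1, and Pgk1 in Egr2MKO, which fell by 0.60 ± 0.12 and has near copies, to -0.49 without Egr2MKO 24 h replicate 1 and -0.51 without Egr2MKO basal replicate 2. Dividing cell markers summed to 187 to 189 TPM in Egr2MKO and 114 to 126 TPM in Egr2WT at 24 h, and 3 of 5 of them and 3 of 8 macrophage markers were higher in Egr2MKO at that time. Their part in the members' differences was not tested.

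**Figure D4:**
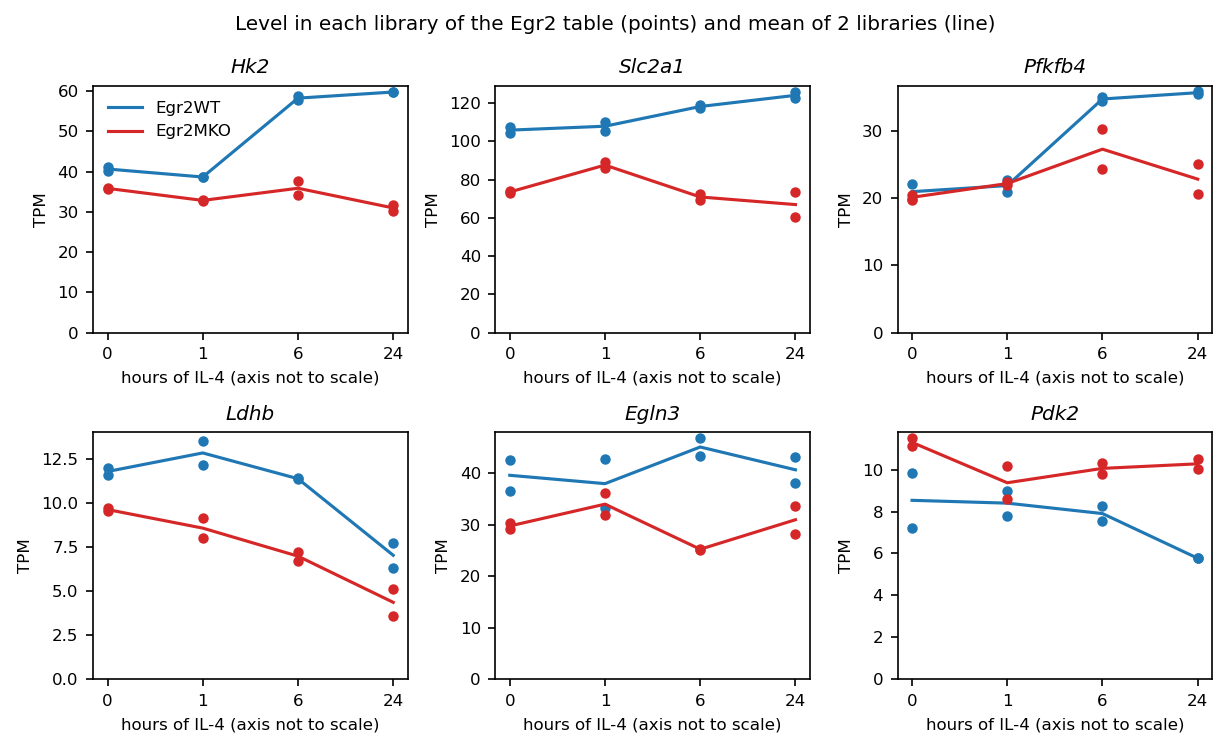
Levels of 6 members in the Egr2 table. The x axis gives hours of IL-4 (not to scale), the y axis TPM from 0, points are the 2 libraries of each genotype and time and lines join their means; Hk2 reaches 59.8 TPM at 24 h in Egr2WT and 30.2 and 31.7 TPM in Egr2MKO, and Slc2a1 lies lower in Egr2MKO at every time.

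The F1 hybrids carry both parental alleles in the same nucleus, so an allele difference there is set beside the difference between the parents. The authors weighted each gene's value by the reads that overlap strain variants, the values have no stated depth, and only the 2 alleles of 1 gene are compared. In the C57 by NOD cross 20 of the 34 members were at 0 in every column and 10 had a mean of at least 10 for an allele in both conditions, and in the C57 by SPRET cross 1 and 21. No test was made on these values, and they are a description.

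For most of the members named by rule the alleles differed less than the parents, or the values were too uneven to compare. Pdk1 was at 198 and 191 for the C57 allele and 130 and 128 for the NOD allele in basal F1 cells, a mean log2 difference of -0.59 beside -3.08 between the parents. Egln1 was at 43.6 and 36.5 for C57 and 36.2 and 78.7 for NOD, 0.41 beside -2.30, with the 2 libraries on opposite sides of 0. Pfkp was at 204 and 274 against 238 and 299, 0.17 beside -0.95. Eno1, at 1511 and 1522 against 626 and 514, gave -1.42 beside -1.37, with near copies. Ldhb was at 27.6 for C57 and 25.4 for NOD in 1 basal library and at 41.1 for C57 and listed at 0 for NOD in the other, so no difference is given. Pfkm gave -0.41 beside -0.98 basally, and after IL-4 1 library listed its C57 allele at 0. Gpi1, chosen after its values were seen, was at 29.6 and 25.2 for the C57 allele and at 2.93 in 1 library and listed at 0 in the other for the NOD allele, beside a parental difference of -0.93.

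In the SPRET cross, Hk3 kept part of its difference. It was at 146 and 179 for the C57 allele and 44.5 and 56.7 for the SPRET allele basally, and at 197 and 200 against 64.1 and 98.7 after IL-4, which gave -1.66 and -1.31 beside -4.72 between the parents. Hif1a, at 25.8 and 20.5 against 28.6 and 23.3, gave 0.16 beside 1.66, and Pfkl, at 12.7 and 14.7 against 16.8 and 15.9, gave 0.24 beside 1.33. In single libraries the 2 alleles of Pfkl differed by at most 0.37 on the log2 scale and those of Hif1a by at most 0.17. Gapdh, Pgk1 and Pgam1, which have near copies, gave 4.30, 2.12 and 4.04 beside 7.33, 1.65 and 2.18. Pgk1 also lies on the X chromosome, of which each cell of a female mouse keeps a single copy active. Its allele ratio can therefore also depend on which X is active in more cells, and this was not tested.

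**Figure D5:**
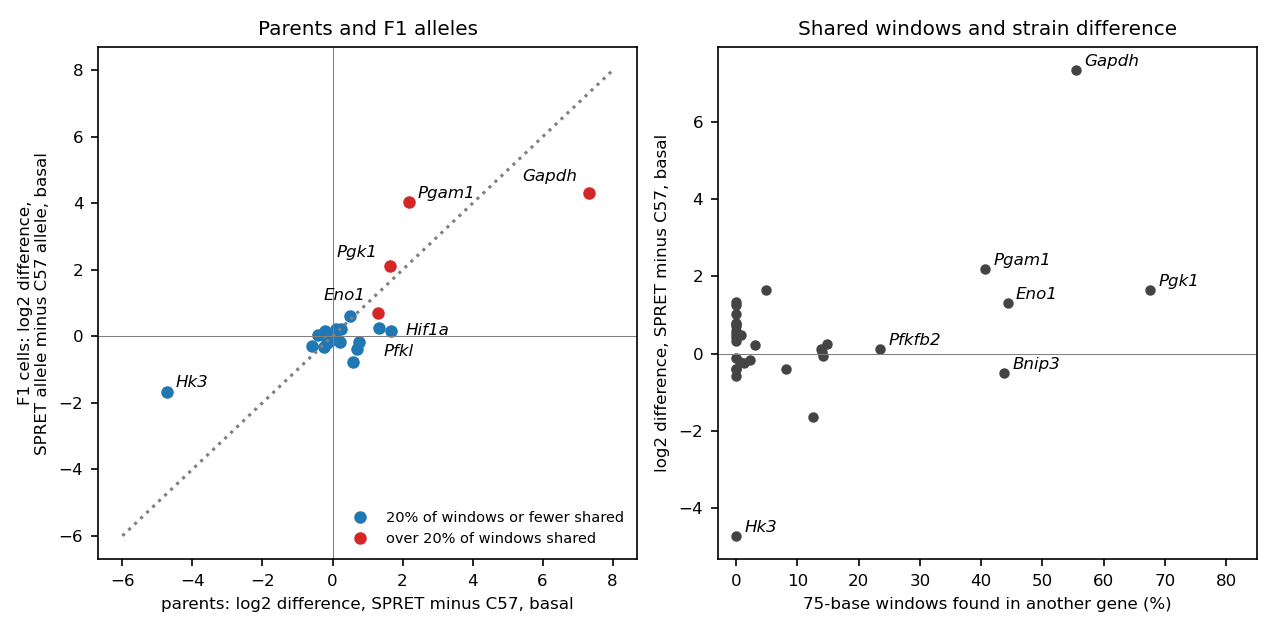
Basal differences between SPRET and C57 beside F1 alleles and near copies. The left panel plots, for the 21 members with an allele mean of at least 10, the F1 log2 difference of SPRET allele minus C57 allele against the log2 difference of the parents, with a dotted line where both are equal and red points for genes with over 20% of windows shared; the right panel plots the parental difference of the 33 members tested against the percent of 75-base windows found in another gene. Gapdh lies at 55.5% and 7.33 and Hk3 at 0% and -4.72.

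The promoter windows of the members were compared with all RefSeq promoter windows in letters only. Of the 34 members, 33 had a window, in 49 entries, and Slc2a3 is named only. The HIF core letters ACGTG or GCGTG, searched on both strands, were in 41 of 49 entries (83.7%) and in 14380 of 32851 of all entries (43.8%). With any entry of a gene counted, they were in 30 of 32 tested members (93.8%) and in 6115 of 9048 of tested genes (67.6%). The STAT6 palindrome, TTC and GAA with 4 bases of any kind between them, was in 5 of 49 entries (10.2%) beside 6.95% of all, and the EGR letters GCGTGGG, which contain the HIF core, in 6 of 49 (12.2%) beside 5.04%. The members include genes known as HIF targets, so their share of HIF core letters is not independent of how they were listed.

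Across the 29 libraries of the strain table many members varied together, largely by strain. Of 528 pairs of members, 83 had a correlation of log2(TPM + 1) over 0.8, and the median was 0.503. Slc16a3 and Egln1 had r = 0.981 and Pfkl and Egln1 r = 0.962, while Pfkfb3 and Pfkfb4 had r = -0.888. After each group's mean was subtracted no pair was over 0.8, the median was 0.138, and Pfkfb3 and Pfkfb4 had r = 0.457. Pfkfb3 and Hif1a had 0.516 over the libraries and 0.783 after subtraction. The libraries share strain, treatment and depth, so these values are descriptions.

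Other genes of the same pathways were taken from lists that had not been picked by direction of change. Of 7 pentose phosphate genes, 3 fell and 1 rose after 24 h of IL-4 in C57 and 1 fell in SPRET, against 5.27%, 5.00% and 4.27% of all genes. Pgd, which makes NADPH and ribulose 5-phosphate, fell in C57 by 1.18 ± 0.04 and in SPRET by 0.61 ± 0.04, and in the time course by 1.22 ± 0.06 and 0.79 ± 0.06. Among 8 glycogen genes tested, 2 fell in C57, against 5.27% of all genes, and 7 were lower in basal NOD than in C57, against 30.1%. Of 6 HIF regulators tested, Epas1, which encodes HIF-2 alpha, rose in C57 by 0.85 ± 0.12, in PWK by 0.83 ± 0.14 and in SPRET by 0.61 ± 0.12. Over all genes 5.00%, 4.12% and 6.80% rose in these strains. The SPRET values were low, at 0.295 to 0.370 TPM basally and 0.901 to 1.19 TPM after IL-4. In the time course Epas1 went from 40.6 and 39.2 TPM to 79.2 and 73.0 TPM at 24 h in C57. In SPRET there it stood at 3.16 and 2.80 TPM basally and 3.40 and 3.84 TPM at 24 h. Of 22 other HIF targets tested, 4 rose and 2 fell after IL-4 in C57, against 5.00% and 5.27% of all genes, and none rose and 6 fell in SPRET, against 6.80% and 4.27%. In basal NOD 3 of these were higher and 10 lower than in C57, against 10.3% and 30.1%. Of 17 further genes of glycolysis and pyruvate entry, Pdp1, the phosphatase that turns pyruvate dehydrogenase on, rose in C57 by 0.64 ± 0.12 and in SPRET by 0.98 ± 0.12. Over all genes 5.00% and 6.80% rose there. Pdp1 went from 4.83 and 5.50 TPM to 6.27 to 7.33 TPM in PWK. Its basal and IL-4 libraries overlapped in BALB, at 3.88 to 4.51 and 4.07 to 4.91 TPM, and in NOD, at 8.27 to 9.64 and 7.26 to 10.7 TPM. Fbp1 of the same list moved further in SPRET, from 0 to between 7.98 and 8.29 TPM. In Egr2WT Pgd fell by 1.03 ± 0.05, and Epas1 and Pdp1 rose by 1.16 ± 0.07 and 0.98 ± 0.10.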

How the data were processed

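RNA-seq libraries (poly A RNA, single-end reads of 75 bases) were mapped by the authors with STAR to the genome of each strain, shifted to mm10 coordinates with MMARGE and quantified over exons with HOMER, and the deposited values are TPM per gene, 1 column per library. The authors' own fold change and p-value columns were not used, and neither was a table of human samples. The TPM columns of the strain table add to 629935 to 690215 over the genes listed. For the F1 tables, 1 per cross, the authors multiplied values by the share of reads overlapping strain variants, which gave allele-weighted TPM scores per allele of unknown depth, and their length column is a genomic span, so only alleles of 1 gene were compared.

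Samples were grouped by their labels, and replicates are biological per the study's methods, which do not say whether each was a separate animal, so p-values measure the spread between these libraries. A gene was kept if 2 or more libraries of the table reached 1 TPM. Each table was fitted on log2(TPM + 1) with 1 mean per group in limma 3.58.1 (R 4.3.3, empirical Bayes with a trend), and p-values were adjusted by Benjamini-Hochberg over all genes tested. A call needed a fold over 1.5 and an adjusted p under 0.05. The fold is on the log2(TPM + 1) scale, which understates low genes. A step in TPM is not a read count, so no count model was used and depth is taken from the tag totals in the column headers. On simulated data with known changes, 98% of 2-fold changes in the strain table, 94% in the time course and 94% between the Egr2 genotypes were recovered, with 1, 4 and 3 unchanged genes called. The changed genes had a mean log2(TPM + 1) over 2, so recovery of changes in lower genes, or of 1.5-fold changes, was not measured.

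The values of the libraries compared are given for members called after IL-4 in at least 3 strains, the 3 largest interactions per strain and the 6 largest differences of each other table, and all libraries of the strain table for the 5 with the widest range over groups; other members named were chosen after their values were seen. The members and gene lists were chosen with earlier results of these data known. Alternatives were other pseudocounts, filters, fold limits and scalings, a replicate block, fits of the compared groups only, single libraries left out and, chosen after seeing the data, the members without near copies. Same-numbered libraries were checked for pairing by correlating their deviations from group means. Windows were matched against GENCODE vM21 (GRCm38). Promoter windows are from RefSeq.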

Additional observations from a re-analysis of the deposited data

Results flagged for a closer look

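All values here are interactions, log2 differences between the 24 h IL-4 response of a strain or genotype and that of its reference, and each passed limma's test of the difference itself. In the strain table the response differed from that of C57 for Egln3 in BALB (-0.6452), for Pfkfb3 (0.7292), Pfkm (0.6643) and Ldhb (0.6164) in NOD, for Slc2a3 (-1.081), Pdk1 (0.7012) and Pfkm (0.5859) in PWK, and for Pfkfb3 (-1.244), Slc2a3 (-1.181) and Pfkfb4 (1.153) in SPRET. Pfkfb3, which encodes a maker of fructose 2,6-bisphosphate, fell further in SPRET than in C57, while in NOD its basal and IL-4 libraries overlapped. The NOD difference came to 0.50 under median-ratio scaling and no longer passed. These comparisons share the C57 libraries. Slc2a3, a glucose transporter, was under 8 TPM in every library of that table.

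In the time course the 24 h response of SPRET exceeded that of C57 for Egln3 (2.665), Pfkfb4 (1.672), Slc16a3 (1.662), Bnip3 (1.51), Aldoc (1.466) and Slc16a1 (0.997). For Egln3, Slc16a3, Bnip3 and Aldoc this came with a fall in C57, and for Egln3, Pfkfb4 and Slc16a1 with a rise in SPRET. In the strain table the same interaction was called in the opposite direction for Egln3 (-0.81 ± 0.09) and Bnip3 (-0.94 ± 0.10), was not called for Slc16a3 (-0.27 ± 0.09) or Aldoc (0.04 ± 0.09), and was called in the same direction for Pfkfb4 (1.15 ± 0.10) and Slc16a1 (0.87 ± 0.12). In the Egr2 table the response of Egr2MKO was below that of Egr2WT for Hk2 (-0.7503) and Pfkfb3 (-0.6421). No group had 4 or more libraries, so no single library was tested for standing apart from its group.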

How the results depend on the processing

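No called difference of a single member changed sign under any alternative, whereas some of the members' medians given below did. Of 1666 refits of 186 called differences of single members under the other settings, 183 lost the call, and of 1077 refits with 1 library left out 67 did. Restricting each fit to the groups compared, or dropping the filter on low values, left every count within 1.5 times. A count is listed below as changed only if it moved by more than 1.5 times, or to or from 0. Smaller moves are left out. In basal NOD, for example, no limit on the fold gave 3 higher and 29 lower members, from 2 and 22. The counts add both directions, so members that replace each other do not show. A median is listed as moved if it shifted by at least its SD within groups. In a group of 2 the library that remained was assumed to vary like the other groups. The depth of the TPM values cannot be recovered, so low members such as Slc2a3 and Pfkfb2 have no counting interval.

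Same-numbered libraries were not paired by the labels. The correlation of their deviations from the group means ran from -0.085 to 0.333 in the strain table, from -0.14 to 0.087 in the time course and from -0.052 to 0.033 in the Egr2 table, so the numbers were not taken as pairs. With a replicate block 0 of the 186 calls were lost.

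With a limit of 2-fold, the number of members called changed for 24 h IL-4 in C57 (0, from 6), BALB (0, from 1), PWK (1, from 4) and SPRET (4, from 8), for basal differences from C57 in BALB (2, from 7), NOD (12, from 24) and PWK (10, from 20), for interactions in BALB (0, from 1), NOD (0, from 3), PWK (1, from 3) and SPRET (3, from 8), in the time course for C57 at 1 h (0, from 1), C57 at 6 h (0, from 3), C57 at 24 h (6, from 12), SPRET at 1 h (1, from 2), SPRET at 6 h (3, from 6), SPRET at 24 h (5, from 11), basal SPRET against C57 (9, from 16) and the 24 h interaction (8, from 16), in the Egr2 table for the Egr2WT response (0, from 4), the Egr2MKO response (2, from 4), the genotypes at 24 h (0, from 6), the genotypes at 6 h (0, from 4) and the 24 h interaction (0, from 2). With no limit on the fold, the number of members called changed for 24 h IL-4 in C57 (20, from 6), BALB (19, from 1), NOD (16, from 0), PWK (16, from 4) and SPRET (24, from 8), for basal differences from C57 in BALB (22, from 7), PWK (31, from 20) and SPRET (28, from 14), for interactions in BALB (9, from 1), NOD (18, from 3), PWK (10, from 3) and SPRET (18, from 8), in the time course for C57 at 1 h (2, from 1), C57 at 6 h (8, from 3), C57 at 24 h (23, from 12), SPRET at 1 h (6, from 2), SPRET at 6 h (14, from 6), SPRET at 24 h (23, from 11), basal SPRET against C57 (28, from 16) and the 24 h interaction (25, from 16), in the Egr2 table for the Egr2WT response (23, from 4), the Egr2MKO response (20, from 4), the genotypes at 24 h (21, from 6), the genotypes basally (8, from 0), the genotypes at 1 h (10, from 0), the genotypes at 6 h (14, from 4) and the 24 h interaction (7, from 2). With a pseudocount of 0.1 TPM, the number of members called changed for 24 h IL-4 in BALB (4, from 1) and NOD (1, from 0), for interactions in NOD (5, from 3). The members' median log2 difference moved for basal differences from C57 in NOD (-0.87, from -0.79). With a pseudocount of 5 TPM, the number of members called changed for 24 h IL-4 in C57 (2, from 6), BALB (0, from 1) and SPRET (5, from 8), for basal differences from C57 in BALB (4, from 7), for interactions in NOD (1, from 3) and PWK (0, from 3), in the time course for C57 at 6 h (1, from 3), in the Egr2 table for the Egr2WT response (2, from 4), the genotypes at 24 h (2, from 6) and the 24 h interaction (1, from 2). The members' median log2 difference moved for 24 h IL-4 in NOD (0.097, from 0.17), for basal differences from C57 in NOD (-0.68, from -0.79), in the time course for C57 at 24 h (-0.25, from -0.35) and basal SPRET against C57 (0.41, from 0.51). With median-ratio scaling, the number of members called changed for 24 h IL-4 in BALB (2, from 1), for interactions in BALB (0, from 1) and PWK (1, from 3), in the Egr2 table for the 24 h interaction (4, from 2). The members' median log2 difference moved for 24 h IL-4 in BALB (0.015, from -0.13), NOD (0.019, from 0.17), PWK (-0.044, from 0.057) and SPRET (-0.41, from -0.27), for basal differences from C57 in NOD (-0.41, from -0.79) and PWK (-0.23, from -0.43), for interactions in BALB (-0.051, from -0.14), NOD (-0.079, from 0.14), PWK (-0.11, from 0.069) and SPRET (-0.38, from -0.23), in the time course for basal SPRET against C57 (0.43, from 0.51), in the Egr2 table for the genotypes at 24 h (-0.34, from -0.21) and the 24 h interaction (-0.11, from 0.012). With only genes of mean at least 5 TPM, the members' median log2 difference moved for 24 h IL-4 in NOD (0.10, from 0.17), for basal differences from C57 in NOD (-0.87, from -0.79), PWK (-0.57, from -0.43) and SPRET (0.32, from 0.25). Without the 6 members with near copies, the members' median log2 difference moved for 24 h IL-4 in PWK (0.13, from 0.057), in the time course for basal SPRET against C57 (0.42, from 0.51).

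With 1 library left out, the number of members called ran from 0 to 1 in the Egr2 table for the genotypes at 1 h, 2 to 5 in the Egr2 table for the Egr2WT response, 0 to 2 for 24 h IL-4 in BALB, 0 to 1 for 24 h IL-4 in NOD, 1 to 3 in the Egr2 table for the 24 h interaction, 0 to 1 for interactions in BALB, 1 to 3 for interactions in PWK and 1 to 2 in the time course for SPRET at 1 h. The median ran from 0.095 to 0.21 for 24 h IL-4 in NOD, 0.060 to 0.17 for interactions in NOD, -0.39 to -0.24 in the time course for C57 at 24 h, 0.13 to 0.27 in the time course for SPRET at 24 h, 0.42 to 0.61 in the time course for basal SPRET against C57 and 0.48 to 0.66 in the time course for the 24 h interaction.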

Other observations

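Fbp1, a gluconeogenic enzyme that undoes the phosphofructokinase step, was listed at 0 in basal SPRET of the strain table and at 7.98 to 8.29 TPM after 24 h of IL-4. In the time course it reached 106 to 110 TPM in SPRET at 24 h. Hmox1, a heme oxygenase and stress-response gene on the list of HIF targets, fell after 24 h of IL-4 in C57 by 1.58, in SPRET by 1.36 and in PWK by 0.78 on the log2 scale, and in C57 of the time course by 1.72. In SPRET of the time course Hmox1 stood at 230 and 236 TPM basally and 219 and 199 TPM at 24 h, so the fall in SPRET was not seen to that extent there. Eno1b, a near copy of Eno1, differed from C57 basally in the same directions as Eno1, by -1.08 in NOD, -0.63 in PWK and 1.36 in SPRET, where Eno1 differed by -1.37, -0.93 and 1.30. Of the windows of Eno1, 43.5% were found in Eno1b, and of those of Eno1b 69.6% in Eno1, and reads from these windows cannot be told apart.

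Among other HIF targets in SPRET of the time course, 7 of 20 tested rose and 2 fell at 24 h, against 6.21% of all genes rising and 8.80% falling, led by Ero1l (1.33) and Ak4 (1.31) upward and Cited2 (-1.14) downward. In SPRET of the strain table none rose and 6 of 22 tested fell, against 6.80% and 4.27% of all genes. In basal NOD 5 of 7 pentose phosphate genes were lower than in C57, led by Pgd (-2.20 ± 0.04), against 30.1% of all genes lower and a median of -0.30 over all genes. Pgd, which fell at 24 h in both Egr2 genotypes, was also lower in Egr2MKO than in Egr2WT at that time, by 0.71 ± 0.05.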
